A study of Homo sapiens with 8 samples.

Results

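Gene expression in CYP2C19-overexpressing HepG2 cells treated with compound 5 was compared with that in the same cells treated with DMSO, across the whole transcriptome. The comparison used the 2 compound 5 samples and the 2 DMSO samples, 4 of the 8 samples sequenced, chosen by the treatment named in their labels. The other 4 samples, 2 each of cells treated with compounds 4 and 6, entered the shared estimate of the spread and a direct comparison with compound 5. The study asked whether chemicals used in making plastic are toxic to liver cells that overproduce this enzyme.

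HepG2 cells derive from a human liver tumour. The cells used here carried extra copies of CYP2C19, a drug-metabolizing cytochrome P450, and were kept under blasticidin to hold on to them, also in the DMSO group. A single cell line was used, and no cells without the transgene are among the 8 samples. Compound 5 is a bisphenol-type antioxidant in which a bridge carrying a methyl group joins a pair of phenol rings. Each ring has a tert-butyl group next to its hydroxyl group and another opposite it. Compounds 4 and 6 have a plain methylene bridge and a methyl group on each ring, together with a tert-butyl group in compound 4 and a cyclohexyl group in compound 6. Each compound was given for 24 h at its own IC50, which had been measured in a longer assay. The study describes the IC50 values of compounds 4, 5 and 6 as comparable, so the doses were similar but not equal. The labels call the replicates day 1 and day 2, and every group holds a sample of each day. The treatment lasted 24 h in every group, and the labels do not say what the day refers to. It was read as the replicate number. The main test did not pair samples by this number, and an alternative, the replicate block, did. The labels mark DMSO replicate 1 and compound 4 replicate 1 as merged, without saying whether runs or separate libraries were joined. The sources used here do not say that the replicates of a group were separate cultures, and p-values then measure only the spread between these samples, which may be technical.

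The liver makes much of the cholesterol of the body and exports it in lipoproteins and as bile acids. The transcription factor SREBP2 raises the genes of cholesterol synthesis when sterols in the membrane run low, and SREBP1 those of fatty acid synthesis. Bile acids are sensed by the nuclear receptor FXR, which raises the exporter SLC51A/SLC51B and the repressor NR0B2. Stress that limits amino acids, protein folding or redox balance raises genes through ATF4, NRF2 or the zinc sensor MTF1, and growth factor signalling raises the AP-1 factors and the phosphatases that damp ERK.

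The total count was 9791659 and 11444500 in the DMSO libraries and 12863644 and 17814595 in the compound 5 libraries. Levels are CPM, counts scaled to library size with TMM factors, for replicates 1 and 2 in that order, fold changes are fitted log2 fold changes with their standard errors (SE), and the adjusted p comes from the quasi-likelihood test of edgeR, adjusted over 13400 genes by the Benjamini-Hochberg method. HepG2 markers were abundant in all 4 libraries, with a summed level of 55300 and 51200 CPM under DMSO and 45400 and 44000 CPM under compound 5 over 11 genes. The summed endothelial markers were between 0.741 and 1.43 CPM and the fibroblast markers between 5.10 and 11.4 CPM. Of the leukocyte markers, PTPRC and CD3E were listed at 0 in every library, while LYZ held most of the sum of 1620 to 2190 CPM. A gene listed at 0 in every library may be silent or may be missed by the deposited counts, which cannot be told apart here. CYP2C19 itself, on chromosome 10 (GRCh38, chr10:94762681-94853205), was at 27.7 and 16.4 CPM under DMSO and at 52.8 and 38 CPM under compound 5. Its level was higher under compound 5 by 1.05 on the log2 scale (SE 0.26, adjusted p = 0.040). The ranges did not overlap, as for 31.0% of all genes tested in this direction. Over 11 alternative analyses the log2 fold change of CYP2C19 lay between 0.71 and 1.45, and the gene did not pass in all of them. Reads of the transgene and of the cell's own gene cannot be told apart in these counts. In bulk RNA, a smaller share of cells expressing a gene and less RNA per cell cannot be told apart either.

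The promoters of 4 genes are shown here because the results below turn on their genes. HMGCS1 and MSMO1 encode enzymes of cholesterol synthesis and fell under compound 5, and MT2A and MT1X encode metallothioneins and rose. Each sequence is the 250 bases upstream of the gene start in RefSeq (GRCh38.p14), read 5′ to 3′ on the strand of the gene. In the first pair, capitals mark the CCAAT box, the site of the factor NF-Y that works beside SREBP, found on either strand. In the second pair, they mark TGCACNC or TGCGCNC, the core of the metal response element read by MTF1, on either strand.
HMGCS1, chr5:43313413-43313662, minus strand: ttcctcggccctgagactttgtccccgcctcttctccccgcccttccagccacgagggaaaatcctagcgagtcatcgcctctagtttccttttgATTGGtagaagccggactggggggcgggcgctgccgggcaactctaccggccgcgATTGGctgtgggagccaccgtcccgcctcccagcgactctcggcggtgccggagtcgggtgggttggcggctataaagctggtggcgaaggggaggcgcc
MSMO1, chr4:165327419-165327668, plus strand: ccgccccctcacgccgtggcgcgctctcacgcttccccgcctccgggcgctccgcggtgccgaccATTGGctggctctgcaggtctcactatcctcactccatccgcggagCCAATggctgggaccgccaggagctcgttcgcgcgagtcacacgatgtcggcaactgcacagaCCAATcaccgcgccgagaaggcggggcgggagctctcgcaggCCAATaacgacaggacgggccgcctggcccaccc
MT2A, chr16:56608334-56608583, plus strand: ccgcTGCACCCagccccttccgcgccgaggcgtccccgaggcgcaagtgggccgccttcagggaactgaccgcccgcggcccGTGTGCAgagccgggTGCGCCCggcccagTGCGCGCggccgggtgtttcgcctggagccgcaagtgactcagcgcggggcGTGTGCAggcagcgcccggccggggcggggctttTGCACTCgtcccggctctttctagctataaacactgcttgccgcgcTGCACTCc
MT1X, chr16:56682220-56682469, plus strand: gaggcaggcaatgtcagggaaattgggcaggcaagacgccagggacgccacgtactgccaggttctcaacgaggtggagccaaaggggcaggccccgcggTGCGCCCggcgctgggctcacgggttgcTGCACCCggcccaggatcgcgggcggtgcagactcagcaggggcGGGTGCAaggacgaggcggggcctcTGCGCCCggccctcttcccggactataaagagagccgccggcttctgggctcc

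Compound 5 changed 1112 of the 13400 genes tested, 8.30%, with 717 higher (5.35%) and 395 lower (2.95%). At an unadjusted p under 0.05 there were 3811 genes. Most changes were small, since 514 of the 717 increases and 248 of the 395 decreases were under 2-fold, 165 and 125 lay between 2- and 4-fold, and 38 and 22 were over 4-fold. The increased genes had a median level of 62.2 CPM, the decreased genes 21.3 CPM and all genes tested 23.8 CPM, on a scale that is not corrected for transcript length. Protein-coding genes made up most of the calls, with 695 higher and 365 lower among 11794 tested, which is 8.99%. Of 1033 long non-coding RNAs, 13 were higher and 23 lower (3.48%), and of 468 pseudogenes, 9 were higher and 5 lower (2.99%). In all 1112 genes both compound 5 libraries lay beyond both DMSO libraries on the same side. Among all genes tested, both compound 5 libraries lay above both DMSO libraries in 31.0% and below both in 28.5%.

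**Figure D1:**
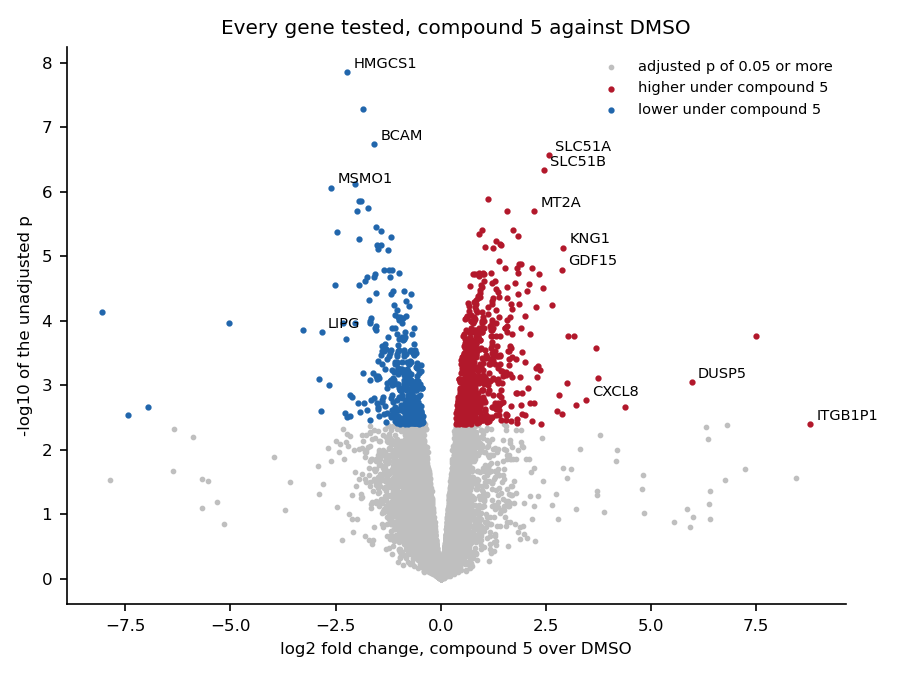
Each point is 1 of the 13400 genes tested, with the fitted log2 fold change of compound 5 over DMSO on the horizontal axis and −log10 of the unadjusted p on the vertical axis. Red points are the 717 genes higher and blue points the 395 genes lower at an adjusted p under 0.05. HMGCS1 has the smallest p on the side of decreases, SLC51A and SLC51B on the side of increases.

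The genes with the smallest p included HMGCS1 and BCAM, which fell, and SLC51A and SLC51B, which rose. HMGCS1, an early synthase of the mevalonate pathway (GRCh38, chr5:43289395-43313512), was at 247 and 222 CPM under DMSO and at 46.0 and 54.2 CPM under compound 5. It decreased by 2.22 on the log2 scale (SE 0.13, adjusted p = 0.00019). Both compound 5 libraries were far below both DMSO libraries. BCAM, an adhesion molecule that binds laminin, went from 206 and 197 CPM to 65.3 and 69.1 CPM and decreased by 1.58 (SE 0.12, adjusted p = 0.00081). SLC51A and SLC51B are described with the bile acid genes.

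The largest increases, among genes with a mean of at least 1 CPM, were mostly signalling and secreted proteins that DMSO-treated cells expressed at a low level. DUSP5, a nuclear phosphatase that inactivates ERK (GRCh38, chr10:110497838-110511544), was at 0.512 and 0.419 CPM under DMSO and at 44.8 and 14.8 CPM under compound 5, an increase of 5.96 on the log2 scale (SE 1.26, adjusted p = 0.023). GDF15, a stress-induced hormone that acts on appetite (GRCh38, chr19:18374731-18389176), was at 384 and 255 CPM under DMSO and at 3000 and 1720 CPM under compound 5. It rose by 2.89 (SE 0.37, adjusted p = 0.0047). Replicate 1 was the higher compound 5 library for both genes, and neither overlapped with DMSO. The complement receptor C5AR1 rose by 4.37, the long non-coding RNA UCA1 by 3.69, the chemokine CXCL8 by 3.44, the EGF receptor ligand AREG by 3.22, the focal adhesion protein TNS4 by 3.16, the small G protein RASD1 by 3.01 and the fucosyltransferase FUT1 by 2.81. BATF, an AP-1 family factor, had at most 3 counts in each DMSO library and was at least 13.8-fold higher against 3 counts per library. The processed pseudogene ITGB1P1 (chr19:14621634-14622242) had no counts in either DMSO library and 5.52 and 3.70 CPM under compound 5, at least 16.2-fold higher against the same floor. Its count is uncertain, since its reads can also belong to the parent gene ITGB1.

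The largest decreases included LINC03040 (−3.28), the gluconate kinase IDNK (−2.89), the endothelial lipase LIPG (−2.83), MSMO1 (−2.61), the purinergic receptor P2RY8 (−2.47), the haptoglobin-related gene HPR (−2.32) and the transporter SLCO4C1 (−2.26). MSMO1, a C4-methyl sterol oxidase, was at 138 and 128 CPM under DMSO and at 17.0 and 26.1 CPM under compound 5 (SE 0.24, adjusted p = 0.0016). Its lower compound 5 library was replicate 1, and the groups did not overlap. HPR and HP have near-identical sequences, so the split of reads between them is uncertain, and HP itself decreased by 0.90 (SE 0.20, adjusted p = 0.026).

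Genes were next grouped into lists by function, each set against the 8.30% of all tested genes that changed and a median log2 fold change over all genes of 0.004. Cholesterol synthesis was lower as a whole. Of 20 enzymes tested, 19 fell and 0 rose, and the median log2 fold change was −1.54. The fall ran along the pathway, from ACAT2 (−1.54) through the mevalonate steps MVK (−1.22), MVD (−1.53), IDI1 (−2.03) and FDPS (−1.18), the squalene steps FDFT1 (−1.95), SQLE (−1.49) and LSS (−1.90), and the sterol steps CYP51A1 (−1.19), TM7SF2 (−2.0), NSDHL (−1.25), EBP (−0.91), SC5D (−1.16) and DHCR7 (−1.56). The list median was −1.80 in compound 5 replicate 1 and −1.26 in replicate 2. Without DMSO replicate 2, 12 of the 20 were called, and without any of the other 3 libraries between 17 and 19 were.

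The regulators of sterol balance were less uniform. Of 16 tested, 7 fell and 0 rose, with a median of −0.28. SREBF2, which encodes SREBP2, went from 284 and 263 CPM to 170 and 181 CPM (−0.64, SE 0.11, adjusted p = 0.011). STARD4, a carrier of cholesterol in the cytosol, fell by 1.41, and the intestinal-type sterol importer NPC1L1 by 1.53. INSIG1, the sterol-regulated anchor of the SREBP complex, was listed at 0 in all 8 libraries, so its level is not known from these counts. Leaving out DMSO replicate 1 or DMSO replicate 2 gave 2 calls and 1 call, and leaving out compound 5 replicate 1 gave 3.

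Fatty acid synthesis fell as well, in 10 of 12 genes tested and with a median of −0.90. SCD, the desaturase that makes oleate, was at 1960 and 1820 CPM under DMSO and 604 and 745 CPM under compound 5 (−1.48, SE 0.17, adjusted p = 0.0031). FASN, the fatty acid synthase, went from 1320 and 1240 CPM to 564 and 726 CPM (−0.99, SE 0.13, adjusted p = 0.0047). ACSS2, which activates acetate, fell by 1.73, FADS2 by 1.35, ELOVL6 by 1.34 and ACLY by 0.71. The count dropped to 4 when DMSO replicate 1 was left out, to 3 for DMSO replicate 2 and to 5 for compound 5 replicate 1. In triglyceride metabolism 3 of 16 genes rose and 2 fell. The 2 that fell were DGAT2, the last enzyme of triglyceride synthesis, and PNPLA3, a lipid droplet enzyme, each by 1.95. The lipid droplet coat proteins PLIN2 and PLIN3 rose by 0.72 and 0.67, and the phosphatidate phosphatase LPIN2 by 0.91. With DMSO replicate 1, DMSO replicate 2 or compound 5 replicate 1 left out, 2, 1 and 2 genes of the list were called. Of 17 genes of lipoprotein assembly 5 fell and 0 rose (median −0.55), among them APOA5 (−1.57), APOC3 (−1.49) and ANGPTL8 (−0.99), and without a DMSO library or without compound 5 replicate 1 none of the list was called by edgeR, while DESeq2 called 8 in all samples. Of 16 genes of fatty acid oxidation 1 changed, EHHADH (−1.05), which is 6.25% beside 8.30% of all genes tested. Over 11 alternative analyses the log2 fold change of EHHADH lay between −1.38 and −0.8, and the gene did not pass in all of them.

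In the 250 bases upstream of the gene start, the CCAAT box was present in 12 of the 15 cholesterol enzymes with a promoter in the table (80.0%) and in 33.0% of all 27305 promoters. At least 3 copies were present in 6 of the 15 (40.0%) and in 3.09% of all. The promoter of MSMO1 printed above holds 4 copies and that of HMGCS1 holds 2. The sterol response element, searched as TCACNCCAC, matched 0 of the 15 and 0.875% of all promoters, so these exact letters are not in the stretches searched. For the fatty acid genes the CCAAT box was present in 6 of 11 (54.5%). The CCAAT box was searched after the other motifs, and a match is a description of the sequence, not of binding.

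The bile acid genes that rose were 3 of 10 tested, and 0 fell. SLC51A, the alpha subunit of the basolateral bile acid exporter (GRCh38, chr3:196211487-196243178), was at 7.69 and 8.12 CPM under DMSO and at 45.2 and 49.2 CPM under compound 5 (log2 fold change 2.58, SE 0.21, adjusted p = 0.00091). SLC51B, its beta subunit (chr15:65045370-65053396), was at 10.4 and 13.6 CPM under DMSO and at 57.2 and 73.3 CPM under compound 5 (2.44, SE 0.21, adjusted p = 0.0012). NR0B2, the FXR-induced repressor SHP (chr1:26911489-26913966), went from 69.6 and 62.7 CPM to 146 and 141 CPM (1.12, SE 0.11, adjusted p = 0.0019). The 2 libraries of each group were close together for all 3 genes. All 3 were called in each of the 11 alternative analyses, and with the replicate block 5 of the 10 genes passed. CYP7A1, the rate-limiting enzyme of bile acid synthesis, was too low to be tested, at 0.820 and 0.837 CPM under DMSO and 0.165 and 0.341 CPM under compound 5. ABCB11, the canalicular exporter, was listed at 0, from which nothing is drawn.

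Metallothioneins, small proteins that bind zinc and copper, had the highest median of the lists. Of the 7 genes tested, 6 rose and 0 fell, with a median log2 fold change of 1.66. MT2A (GRCh38, chr16:56608199-56609497) was at 38.3 and 40.0 CPM under DMSO and at 184 and 182 CPM under compound 5 (2.22, SE 0.22, adjusted p = 0.0019). MT1E rose by 2.16, MT1G by 1.77, MT1X by 1.66 and MT1F by 1.56, and SLC30A1, the zinc exporter of the plasma membrane, by 0.81. The MT1 genes have near-identical sequences, so the split of reads among them is uncertain. The list median was 1.49 in replicate 1 and 1.75 in replicate 2, and in contrast to most lists the larger value was in replicate 2. Leaving out DMSO replicate 1, DMSO replicate 2 or compound 5 replicate 1 gave 1, 2 and 4 calls. At least 3 copies of the metal response core stood in 2 of 4 promoters of the list, those of MT2A (7 copies) and MT1X (4 copies) printed above, and in 1.56% of all promoters. SLC30A1 held 1 copy, and at least 1 copy was present in 24.7% of all promoters.

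Of 17 genes of the integrated stress response, ATF4, CHOP and their targets, 9 rose and 0 fell, with a median of 1.00, and 8 did not pass. Among those 8, STC2 and ERO1A had differences of −0.04 and −0.19. ATF4 itself went from 424 and 406 CPM to 679 and 623 CPM (0.65, SE 0.13, adjusted p = 0.022). PPP1R15A, which reverses the phosphorylation of eIF2α, went from 33.8 and 26.6 CPM to 194 and 105 CPM (2.31, SE 0.45, adjusted p = 0.019). DDIT3, which encodes CHOP, was at 13.9 and 11.1 CPM under DMSO and at 70.1 and 25.7 CPM under compound 5 (1.93, SE 0.48, adjusted p = 0.041). With the replicate block its adjusted p was 0.054, and the gene no longer passed. TRIB3, another CHOP target, was at 198 and 177 CPM under DMSO and 560 and 322 CPM under compound 5, with a difference of 1.23 (SE 0.38) that did not pass (adjusted p = 0.076). For both TRIB3 and DDIT3, replicate 1 was the far higher compound 5 library. Fewer than 3 genes of the list were called without DMSO replicate 1 (1), DMSO replicate 2 (0) or compound 5 replicate 1 (2). TGATGNAA, a core of the ATF4 site, matched 1 of 15 promoters of the list (6.67%), that of ATF3, and 3.19% of all.

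Of 12 amino acid transporters, 7 rose and 0 fell (median 0.70), led by SLC3A2, the heavy chain shared by several exchangers, at 225 and 220 CPM under DMSO and 996 and 775 CPM under compound 5 (1.99, SE 0.31, adjusted p = 0.0093). The cystine importer SLC7A11 rose by 1.70 and the glutamine transporter SLC38A2 by 1.08. Of 20 cytosolic aminoacyl-tRNA synthetases 7 rose, the highest GARS1 (0.99) and CARS1 (0.96). Of 13 genes of serine, asparagine and proline synthesis 5 rose, with ASNS, the asparagine synthetase, at 59.1 and 53.3 CPM under DMSO and 195 and 142 CPM under compound 5 (1.58, SE 0.25, adjusted p = 0.0096), CTH (1.40) and MTHFD2 (1.25). In none of these 3 lists was a gene called by edgeR without either DMSO library or without compound 5 replicate 1.

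Endoplasmic reticulum genes rose in 6 of 22 cases and fell in 0. DNAJB9, a cochaperone of BiP, went from 22.0 and 23.2 CPM to 78.3 and 57.4 CPM (1.58, SE 0.16, adjusted p = 0.0019), and HERPUD1, which serves the degradation of misfolded proteins, rose by 1.31. HSPA5, the chaperone BiP, was at 1240 and 1370 CPM under DMSO and 1900 and 1510 CPM under compound 5 and did not pass (0.39, SE 0.12, adjusted p = 0.083). XBP1 was at 239 and 243 CPM under DMSO and 195 and 202 CPM under compound 5 (−0.28, SE 0.11, adjusted p = 0.14). Without a DMSO library 1 gene of the list was called, and without compound 5 replicate 1, 2 were. Of 14 heat shock genes 0 passed in edgeR and 1 in DESeq2 (3 at an unadjusted p under 0.05), and of 31 proteasome subunits 0 and 0 (0).

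Autophagy genes rose in 15 of 35 cases and fell in 0, with a median of 0.47. SQSTM1, the cargo receptor p62, went from 399 and 351 CPM to 1660 and 1160 CPM (1.91, SE 0.24, adjusted p = 0.0047). The others rose by less, among them GABARAPL1 (1.24), WIPI1 (1.00), ATG2A (0.88), the initiating kinase ULK1 (0.87) and the factors TFE3 (0.82) and TFEB (0.73). Without DMSO replicate 1 or without compound 5 replicate 1, 1 of the 35 was called, and without DMSO replicate 2, 0 were. Of 34 lysosomal genes 1 rose, the chloride exchanger CLCN7 (0.54), and 3 fell, among them the hydrolases NAGLU (−1.01) and PPT1 (−0.53). With the replicate block 6 of the 34 passed and with DESeq2 7, and 0 passed in edgeR without either DMSO library or compound 5 replicate 1.

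Targets of NRF2, the sensor of electrophiles and oxidants, rose in 13 of 25 cases and fell in 0, with a median of 0.44. The highest were SLC7A11 (1.70), OSGIN1 (1.69) and SRXN1 (1.30), the last of which reduces overoxidized peroxiredoxins. GCLC and GCLM, the subunits of the enzyme that limits glutathione synthesis, rose by 1.21 each. TXNRD1, the thioredoxin reductase, went from 450 and 404 CPM to 1140 and 805 CPM (1.19, SE 0.19, adjusted p = 0.011). HMOX1, the heme oxygenase, was at 107 and 95.2 CPM under DMSO and at 109 and 109 CPM under compound 5 (0.11, SE 0.14, adjusted p = 0.64). AKR1C1, AKR1C2 and AKR1C3 rose by 0.84, 0.92 and 0.63, with a split of reads between these close copies that is uncertain. Counts of 4, 0, 4 and 14 were found without DMSO replicate 1, DMSO replicate 2, compound 5 replicate 1 and compound 5 replicate 2. The antioxidant element, searched as TGACNNNGC, matched 3 of 18 promoters of the list (16.7%) and 11% of all.

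Of 11 feedback genes of the ERK pathway 6 rose and 0 fell (median 0.66), which besides DUSP5 were DUSP4 (2.12), IER3 (1.87), SPRY4 (1.31), DUSP6 (0.71) and PHLDA1 (0.66). Of 15 AP-1 and immediate early factors 9 rose and 0 fell (median 1.00). EGR1 was at 6.35 and 4.52 CPM under DMSO and at 45.0 and 22.8 CPM under compound 5 (2.64, SE 0.39, adjusted p = 0.0075), followed by KLF4 (1.88), MAFK (1.61), FOSL1 (1.53) and JUNB (1.20). Of 9 EGF receptor genes and ligands 4 rose, AREG (3.22), EREG (2.35), the feedback inhibitor ERRFI1 (0.92) and the shedding protease ADAM17 (0.62). JAG1, a ligand of Notch, went from 183 and 156 CPM to 1130 and 698 CPM (2.43, SE 0.33, adjusted p = 0.0058). Without DMSO replicate 1, DMSO replicate 2 or compound 5 replicate 1, the counts were 2, 1 and 2 for the ERK genes, 2, 0 and 3 for the AP-1 genes and 0 each for the EGF genes. TGACTCA, the AP-1 site, matched 0 of 6 promoters of the ERK list and 4.16% of all.

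Of 16 cytokine and NF-kB genes, 6 rose and 1 fell. The chemokine CCL20 was at 186 and 156 CPM under DMSO and at 746 and 449 CPM under compound 5 (1.80, SE 0.23, adjusted p = 0.0047), CSF1 rose by 1.58, TNFRSF12A by 1.34, ICAM1 by 1.03 and LIF by 0.66, and BIRC3 fell by 0.87. Without DMSO replicate 1, DMSO replicate 2 or compound 5 replicate 1, 2, 0 and 2 of the 16 were called. CXCL8 stayed at a low level, at 0.307 and 0.502 CPM under DMSO and 7.33 and 2.05 CPM under compound 5. IL6, CXCL1 and CCL2 were listed at 0 in all 8 libraries, from which nothing is drawn. The survival genes MCL1 and BCL2L1 rose by 1.06 and 0.90, and BCL2L2 by 0.61, among 14 members of the BCL2 family. Of 22 p53 targets 3 rose and 3 fell. For the BCL2 family and the p53 targets alike, 0 genes were called by edgeR without either DMSO library or without compound 5 replicate 1. CDKN1A was at 51.1 and 51.3 CPM under DMSO and at 49.7 and 51.0 CPM under compound 5 (−0.02, SE 0.15, adjusted p = 0.93), and MDM2 showed a difference of −0.03 (SE 0.12, adjusted p = 0.88).

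Of 36 plasma protein genes 4 rose and 2 fell, which is 16.7% of the list beside 8.30% of all genes tested. With the replicate block 12 of the 36 passed, and with DESeq2 10. Leaving out DMSO replicate 1 gave 2, and leaving out DMSO replicate 2 or compound 5 replicate 1 gave 3 each, while leaving out compound 5 replicate 2 gave 4. ALB, albumin, was at 20700 and 19300 CPM under DMSO and 18200 and 16800 CPM under compound 5 and did not pass (−0.19, SE 0.13, adjusted p = 0.37). KNG1, the kininogen precursor of bradykinin (chr3:186717276-186744410), was at 0.717 and 1.09 CPM under DMSO and at 6.34 and 7.45 CPM under compound 5 (2.90, SE 0.34, adjusted p = 0.0031). ITIH3, an inter-alpha-trypsin inhibitor chain, rose by 1.72, A1BG by 1.24 and the fibrinogen chain FGB by 0.53, whereas SERPINF2, the plasmin inhibitor, fell by 0.84. Among drug metabolism genes, CYP1A1, a target of the aryl hydrocarbon receptor, rose by 0.90 (SE 0.24, adjusted p = 0.048), and with the replicate block its adjusted p was 0.051. CYP2B6, a target of CAR, rose by 1.43 (SE 0.34, adjusted p = 0.035). Over 11 alternative analyses its log2 fold change lay between 0.88 and 1.85, and it did not pass in all of them. Of 7 targets of the aryl hydrocarbon receptor 2 rose, and of 8 targets of the receptors PXR and CAR 2. Of 16 conjugation enzymes 1 rose (6.25%), and 0 genes fell in each of these lists.

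The median log2 fold change of the mitochondrially encoded genes was −0.58, and 1 of 13 passed, which is 7.69% beside 8.30% of all genes tested. It was MT-ND5, at 3350 and 2380 CPM under DMSO and 1840 and 1500 CPM under compound 5 (−0.78, SE 0.20, adjusted p = 0.042). With the replicate block 11 of the 13 passed, and with DESeq2 8. The share of counts from these genes was 7.49% and 5.86% under DMSO and 5.66% and 4.69% under compound 5, so that replicate 1 was the higher library in both groups. The share of ribosomal protein genes was 6.58% and 6.54% under DMSO and 7.06% and 6.98% under compound 5. Of 43 ribosomal protein genes 0 passed in edgeR and 0 in DESeq2 (5 at an unadjusted p under 0.05), and of 35 nuclear genes of the respiratory chain 0 and 0 (3).

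The 2 compound 5 libraries differed in size of response. Of the 717 increases, 619 were larger in replicate 1, with a median difference from DMSO of 0.85 in replicate 1 and 0.61 in replicate 2 on the log2(CPM + 0.5) scale. Of the 395 decreases, 316 were larger in replicate 1, with medians of −0.94 and −0.74. All these differences are taken from the average of both DMSO libraries, which also differed from each other. The difference between replicates 2 and 1 correlated by 0.23 between DMSO and compound 5. How much of the gap is shared with DMSO by replicate number was not tested. Among the genes that passed, 16 increases and 4 decreases were over 2-fold apart between the libraries. Without replicate 1, 118 genes passed, all of them among the 1112, and without replicate 2, 1814 passed, of which 942 were among the 1112. Without DMSO replicate 1, 77 genes passed, and without DMSO replicate 2, 46. Over all genes tested, 234 were over 2-fold apart between the compound 5 libraries (110 higher in replicate 2 and 124 higher in replicate 1), against 189 between the DMSO libraries, 278 between those of compound 4 and 289 between those of compound 6. The median absolute difference was 0.204 for compound 5, the highest of the 4 groups (0.152 for DMSO, 0.186 for compound 4 and 0.154 for compound 6). Compound 5 replicate 2 was also the most deeply sequenced library.

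**Figure D2:**
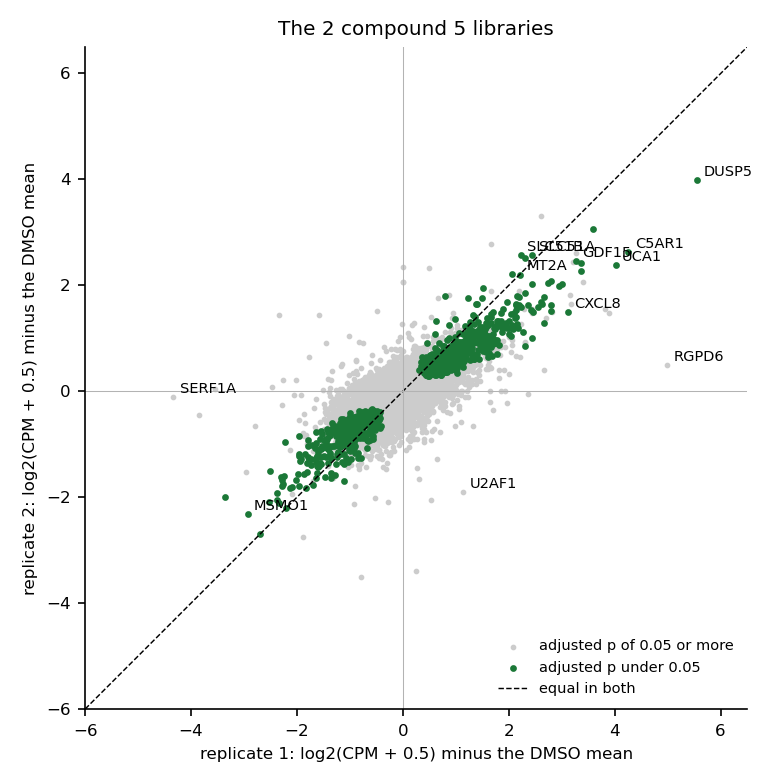
Each point is a gene, with its log2(CPM + 0.5) relative to the DMSO average for compound 5 replicate 1 on the horizontal and replicate 2 on the vertical axis, and the dashed line marks equal values. Green points, the 1112 genes past the threshold, lie in the 2 quadrants where both libraries have the same sign, and most lie on the side of the dashed line where replicate 1 is farther from DMSO. RGPD6, U2AF1 and SERF1A lie far from it.

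The largest gaps among genes that passed were in the genes of the largest increases. UCA1 was at 38.3 CPM in replicate 1 and 12 CPM in replicate 2, C5AR1 at 21.1 and 6.49 CPM, and LINC01484 at 21.2 and 7.45 CPM. The adjusted p of LINC01484 was 0.048, and 0.057 with the replicate block. In UCA1 and C5AR1 the lower compound 5 library was still above both DMSO libraries, which were at 2.46 and 1.42 CPM and at 0.512 and 0.754 CPM. KLHDC7B, at 0.512 and 0.921 CPM under DMSO, was at 17.2 CPM in replicate 1 and at 2.85 CPM in replicate 2 and did not pass (3.71, SE 1.66, adjusted p = 0.18).

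Several genes with the widest gaps have near-identical copies. SERF1A was at 0.165 CPM in replicate 1 and 11.9 CPM in replicate 2, while SERF1A and SERF1B together were at 20.3 and 20.0 CPM. RGPD6 was at 19.7 and 0.398 CPM, and the sum of RGPD5, RGPD6 and RGPD8 at 81.8 and 68.4 CPM. SLX1B was at 8.23 and 22.9 CPM, and the sum with SLX1A at 41.7 and 59.2 CPM. In the first 2 cases the sum was much closer between the libraries than the single gene. U2AF1, a splicing factor subunit, was at 35.8 and 20.3 CPM under DMSO and at 60.1 and 6.89 CPM under compound 5, and its copy U2AF1L5 had no counts. TMEM160 (3.62 and 15.9 CPM), the pseudogene RPS3AP26 (8.97 and 33.7 CPM) and NDUFAF8 (7.99 and 20.1 CPM) were low in replicate 1, near the DMSO levels in replicate 2, and did not pass.

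The compound 5 libraries also differed in cell cycle genes. Of 37 DNA replication genes, 36 had a negative log2 fold change, beside a median over all genes of 0.004. The 3 that passed were GINS1 (−0.91), POLA2 (−0.87) and GINS4 (−0.77). They are 8.11% of the list, close to the 8.30% of all genes tested. With the replicate block 7 of the 37 passed, and with DESeq2 10. The list median was −0.77 in replicate 1 and −0.15 in replicate 2, while the DMSO libraries differed by less, at −0.09 and 0.09. Of 36 mitosis genes 34 were negative and 0 passed in edgeR (14 at an unadjusted p under 0.05, 9 with the replicate block and 8 with DESeq2). The median of the mitosis list was −0.68 and −0.14 in the compound 5 libraries and −0.15 and 0.15 in the DMSO libraries. CCNB1, cyclin B1, was at 185 and 221 CPM under DMSO and at 110 and 166 CPM under compound 5 (−0.56, SE 0.17, adjusted p = 0.076). CDK1, its kinase, was at 46.3 and 63.6 CPM under DMSO and at 31.3 and 45.2 CPM under compound 5 (−0.52, SE 0.20, adjusted p = 0.13). For both genes replicate 2 was the higher library in both groups. Without compound 5 replicate 2, 28 of the 37 replication genes and 21 of the 36 mitosis genes passed, and without replicate 1, 0 of each. Of 20 genes of homologous recombination, 5 fell, with BRCA2 at 24.9 and 31.2 CPM under DMSO and 13.7 and 12.5 CPM under compound 5 (−1.10, SE 0.16, adjusted p = 0.0075), and medians of −0.61 and −0.15 in the 2 libraries. The median of the recombination list was −0.1 and 0.1 in the DMSO libraries. BRCA2 was low in both compound 5 libraries. Of these 20 genes, 1 passed without DMSO replicate 1, 0 without DMSO replicate 2, 1 with compound 5 replicate 1 left out and 10 with compound 5 replicate 2 left out.

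Compound 5 was compared directly with the related compounds, each at its own IC50. Against compound 4, 42 genes passed (0.313%), 17 higher and 25 lower under compound 5, and 22 of the 42 also passed against DMSO. Against compound 6, 138 passed (1.03%), 70 higher and 68 lower, and 105 of the 138 also passed against DMSO. The comparisons share the compound 5 libraries. At an unadjusted p under 0.05 there were 2177 and 2483 genes. The 25 genes that passed against both compounds comprised 13 that were higher and 12 that were lower under compound 5, and 19 of the 25 also passed against DMSO. Leaving out compound 4 replicate 1 or 2 gave 9 and 10 genes against compound 4, and leaving out compound 5 replicate 1 or 2 gave 25 and 11. Against compound 6 the counts without compound 6 replicate 1 or 2 were 0 and 25 in edgeR, with 1285 genes at an unadjusted p under 0.05 in the first case, and those without compound 5 replicate 1 or 2 were 37 and 102.

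The bile acid exporter stood out among them. SLC51A was at 10.4 and 6.69 CPM under compound 4 and at 10.4 and 8.05 CPM under compound 6, close to the DMSO levels, and was higher under compound 5 by 2.48 (SE 0.20, adjusted p = 0.0015) and 2.36 (SE 0.20, adjusted p = 0.0039). SLC51B was at 30.3 and 28.7 CPM under compound 4 and at 16.8 and 23.9 CPM under compound 6, and was higher under compound 5 by 1.15 (SE 0.19, adjusted p = 0.048) and 1.68 (SE 0.20, adjusted p = 0.010). NR0B2 was at 119 and 112 CPM under compound 4 and at 92.6 and 99.6 CPM under compound 6. Its difference did not pass against compound 4 (0.32, SE 0.10, adjusted p = 0.20) and passed against compound 6 (0.58, SE 0.11, adjusted p = 0.037).

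Plasma protein genes were also among the higher ones. KNG1 was at 0.751 and 0.608 CPM under compound 4 and at 0.392 and 0.379 CPM under compound 6, and was higher under compound 5 by 3.34 (SE 0.35, adjusted p = 0.0048) and 4.13 (SE 0.39, adjusted p = 0.0039). The fibrinogen chains FGA, FGB and FGG were higher than with compound 4 by 1.16, 0.91 and 1.24 and than with compound 6 by 1.13, 1.00 and 0.91. Their levels under DMSO lay between those under compound 5 and those under the other compounds. SEC61A1, the channel of the endoplasmic reticulum, was higher by 0.60 and 0.89, the ribosome receptor RRBP1 by 0.71 and 0.85, and SELENOS, a selenoprotein of the same membrane, by 0.70 and 0.91. AOC4P, STK32C, HS6ST1 and TMEM39A complete the 13.

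Of the 12 lower genes, ABCC3, an exporter of conjugates, was at 56.6 and 52.0 CPM under compound 5 and 63.0 and 51.3 CPM under DMSO, but at 130 and 140 CPM under compound 4 and at 133 and 136 CPM under compound 6. It was lower than with compound 4 by −1.32 (SE 0.12, adjusted p = 0.0035) and than with compound 6 by −1.31 (SE 0.12, adjusted p = 0.0039) on the log2 scale. The scaffold protein SRCIN1 fell against DMSO (−1.10) and differed from both compounds, by −2.10 and −2.08. Against DMSO it was higher by 1.01 under compound 4 (adjusted p = 0.015). Under compound 6 the difference from DMSO was 0.98 and did not pass (adjusted p = 0.054). SLC16A6, a monocarboxylate carrier, rose under compound 5 (1.38 against DMSO), and was lower than with compound 4 by −2.04 and than with compound 6 by −0.99. The rest were MEGF6, ADAMTSL4, SCNN1A, HSPG2, ANGPTL8, MIF4GD, LGALS3, NFE2L1 and PON2. Of the genes that passed against 1 compound, CYP1A1 was at 59.5 and 69.1 CPM under compound 4 and at 10.8 and 9.05 CPM under compound 5, a difference of −2.70 (SE 0.20, adjusted p = 0.0010). COL2A1 was higher under compound 5 than under compound 4 by 3.14 (SE 0.41, adjusted p = 0.018). It was at 3.07 and 3.52 CPM under DMSO, 3.13 and 2.96 CPM under compound 5, and 0.281 and 0.38 CPM under compound 4.

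**Figure D3:**
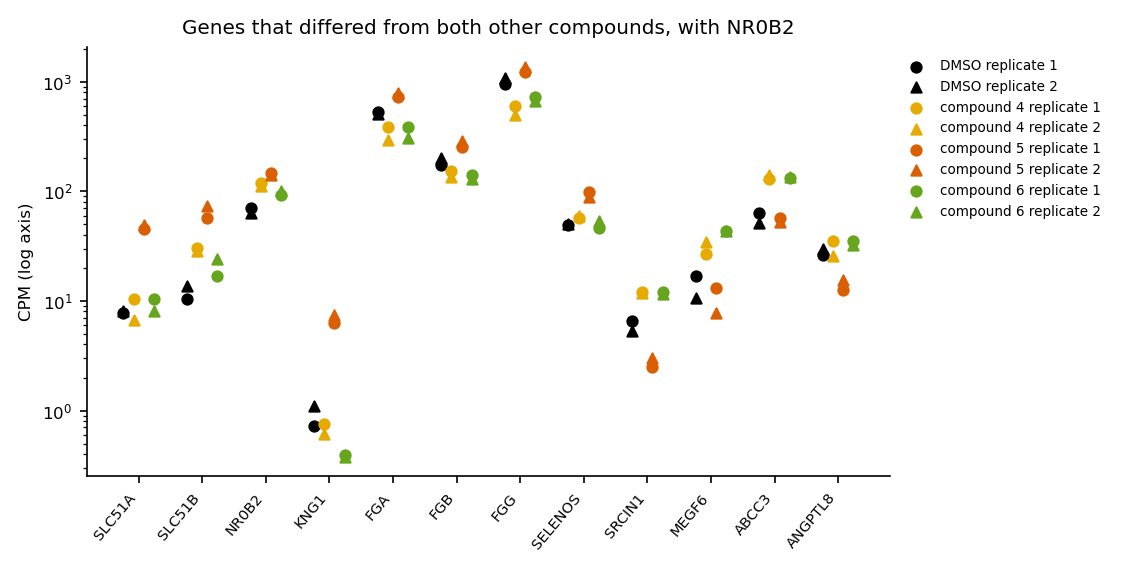
Each point is the level of a gene in 1 library, in CPM on a log axis, for DMSO, compound 4, compound 5 and compound 6, with circles for replicate 1 and triangles for replicate 2. SLC51A and KNG1 are high in both compound 5 libraries alone, NR0B2 is above DMSO with each compound, and SRCIN1 and ANGPTL8 are lowest in the compound 5 libraries.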

How the data were processed

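RNA of 8 samples in 4 groups of 2 was sequenced from directional, paired-end libraries. Per the labels and methods, the authors checked the reads with FastQC 0.12.0, estimated transcript abundance with Salmon 1.5.0 on a GENCODE index (GRCh38), used tximeta for gene-level sums, and deposited estimated counts rounded to whole numbers for 60230 genes. Their own test was DESeq2 1.38.3. No length offsets were used here, and a split of reads between near-identical genes is an estimate. Of the genes, 23080 had a count, and 36 of 955 list genes were listed at 0 in all 8 libraries, from which nothing is drawn. Whether these 36 genes were silent or missed by the deposited counts was not settled. Total counts (9791659 to 17814595) set the precision for low genes.

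The deposited estimated counts were tested with edgeR 4.0.16 (R 4.3.3): TMM, filterByExpr at a minimum count of 10, quasi-likelihood test of group in all 8 samples, Benjamini-Hochberg threshold 0.05 over 13400 genes. The common biological coefficient of variation was 0.122. Each SE was derived from that test, as the absolute log2 fold change divided by the square root of the F statistic. CPM per library uses a pseudocount of 0.5 on log scales, and folds against at most 3 counts per library are bounds. Positions are from GENCODE 29 and promoters from RefSeq. The test was checked on simulated data with 200 changed genes.

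Named genes were the 12 largest increases and 8 largest decreases (mean of at least 1 CPM, groups not overlapping), the 5 smallest p, up to 3 members at each end of the 51 gene lists and further members of the lists, the 6 at each end of the difference between the compound 5 libraries (mean of at least 5 CPM) and the 6 called genes with the widest gap, 3 at each end of the comparisons with compounds 4 and 6, and CYP2C19. A few of the genes it selects are left out of the text. ABCC3, the fibrinogen chains and the other genes that passed against both compounds, and list members outside the rule, were picked after their values were seen. Samples, lists and comparisons were chosen with earlier results of these data known. The labels give the day for each replicate number; the difference between replicates 2 and 1 correlated by 0.23 between DMSO and compound 5, and by −0.16 to 0.30 over the 6 pairs of groups. Alternatives were DESeq2 1.42.0, the replicate block, the 4 samples alone, other size factors, other filters, thinning and leaving out each library. Figures were made in Python 3.11.15 with matplotlib 3.10.9.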

Additional observations from a re-analysis of the deposited data

Results flagged for a closer look

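The difference between compound 5 and another compound was tested directly for each gene named from those comparisons, with edgeR's quasi-likelihood test and an adjusted p under 0.05, and 25 genes passed against both compounds. On the log2 scale KNG1 was higher under compound 5 by 3.34 than under compound 4 and by 4.13 than under compound 6, SLC51A by 2.48 and 2.36, and the pseudogene AOC4P by 1.91 and 2.12. SRCIN1 differed from compound 4 by −2.10 and from compound 6 by −2.08, and MEGF6 by −1.59 and −2.07. Against compound 4 alone, COL2A1 was higher by 3.14, while CYP1A1 (−2.70) and ATOH8 (−2.58) were lower under compound 5. Compound 5 did not pass against DMSO for COL2A1 (−0.12, adjusted p = 0.82), ATOH8 (−0.31, adjusted p = 0.52) or MEGF6 (−0.40, adjusted p = 0.35). Compound 4 did pass against DMSO for COL2A1 (−3.26, adjusted p = 0.0039), ATOH8 (2.27, adjusted p = 0.003) and MEGF6 (1.18, adjusted p = 0.023). For MEGF6 compound 6 also passed against DMSO (1.66, adjusted p = 0.039). Against compound 6 alone, EXOC3L4 was lower (−1.97). The doses were similar but not equal between compounds, and with 2 samples a group no single library can be called an outlier.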

How the results depend on the processing

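Against DMSO, 1112 genes passed. DESeq2 called 1290, the replicate block 1429, the 4 samples alone 847, other size factors 1101, the strict filter (10 counts or more in all samples) 1250 and thinned libraries 1067, whereas without a filter 2431 passed. Leaving out 1 library of the comparison gave between 46 and 1814, with a lone library assumed to vary like the other groups. Against compound 4 (42 genes), DESeq2 called 194, the replicate block 128, the 4 samples alone 10, no filter 750 and the strict filter 65, and leaving out 1 library gave 9 to 25. Against compound 6 (138 genes), DESeq2 called 370, the replicate block 269, the 4 samples alone 49 and no filter 990, and leaving out 1 library gave 0 to 102. The cause of these differences was not tested. Of the calls against DMSO, 64.5% were increases, 58.2% without a filter. Genes over 2-fold apart between the compound 5 libraries numbered 234, but 91 with the strict filter and 123 with a pseudocount of 1 CPM.

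Of 134 named genes that passed against DMSO, all kept their direction wherever they were tested. The replicate block kept 130, DESeq2 125, and leaving out 1 library 19 to 125, and 17 passed under every alternative that tested them, among them HMGCS1, SLC51A, SLC51B, NR0B2, KNG1 and MT2A. U2AF1, which had not passed (0.23), became −0.13 with the replicate block and lay between −2.03 (without compound 5 replicate 1) and 1.11 (without compound 5 replicate 2) when 1 library was left out, −0.12 without DMSO replicate 2. List medians moved by over 1 SD between replicates in 76 of 508 cases. With 2 libraries a group, small differences were not detectable, and genes near 1 CPM rest on few counts.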

Other observations

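Clock genes, which were not described above, held 3 increases among 14 tested and 0 decreases. NR1D1, a repressor of the clock, was at 15.1 and 13.5 CPM under DMSO and at 80.8 and 41.3 CPM under compound 5 (log2 fold change 2.09, SE 0.28, adjusted p = 0.0056), and its relative NR1D2 rose by 0.98. S100 proteins, small calcium-binding proteins, rose in 3 of 12 cases and fell in 0, with S100P (1.11), S100A11 (1.24) and S100A6 (1.23). The S100 list median was 0.99 and 0.34 in compound 5 replicates 1 and 2, and 0.17 and −0.17 in DMSO replicates 1 and 2. Of 13 YAP and TEAD targets 3 rose, with ANKRD1 (2.00) the highest. SLC2A1, the glucose transporter, went from 1470 and 1330 CPM to 2220 and 2070 CPM (0.62, SE 0.11, adjusted p = 0.014), while PFKFB4 fell by 0.95 among the 25 glycolysis and hypoxia genes. The share of all tested genes that changed was 8.30%. Without DMSO replicate 1, DMSO replicate 2 or compound 5 replicate 1, the calls were 0, 0 and 1 for the clock genes, 1, 0 and 1 for the S100 genes and 0 each for the YAP and TEAD targets and for the glycolysis and hypoxia genes.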
